A study of Mus musculus with 6 samples.

Results

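The cells described here were granulocyte-monocyte progenitors (GMPs) of the bone marrow, compared between tumor-bearing mice given brequinar and mice without a tumor. The question was which genes of these progenitors still differed from the tumor-free state under the drug, and for which a difference was detected only there. GMPs were chosen by 1 measured transcript: a cell was kept when its Ms4a3 level, ln(1 + Ms4a3 UMIs per 10000 UMIs), was over 3, with 500 to 7500 genes detected and at most 15% mitochondrial UMIs. A UMI (unique molecular identifier) is 1 counted RNA molecule. Of 39488 deposited cell barcodes, 32762 passed the filters, 15966 could be assigned to 1 mouse, and 3916 of these were GMPs. The 3 mice without a tumor gave 400 GMPs and the 3 brequinar-treated mice gave 2115, while 1401 came from 3 vehicle-treated tumor bearers.

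All 9 mice were female BALB/c, 10 weeks old at harvest, and gave bone marrow enriched for c-Kit, the stem cell factor receptor of blood progenitors. Non-tumor-bearing mice (NTB) carried no tumor and received no treatment. Vehicle mice (Veh) carried an orthotopic 4T1 tumor, which is grown in the mammary gland from a line of BALB/c mammary carcinoma cells, and were given DPBS daily. Brequinar mice (BRQ) carried the same tumor and received the drug daily at 10 mg/kg by intraperitoneal injection for 2 weeks, from the time the tumors could be measured. The groups differ in 2 conditions, tumor and drug, and no tumor-free mice received brequinar, so an effect of the drug alone and an effect on the tumor-bearing state cannot be told apart in BRQ against NTB.

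GMPs give rise to neutrophils and monocytes. On the way to the neutrophil, the primary (azurophil) granule proteins are made first, the secondary and tertiary granule proteins follow at the myelocyte stage, and mature neutrophil genes come last. Ms4a3 encodes a membrane protein whose transcript marks cells committed to this lineage. Brequinar inhibits DHODH, the enzyme of the inner mitochondrial membrane that oxidises dihydroorotate to orotate in de novo pyrimidine synthesis and passes the electrons to ubiquinone. Rapidly dividing progenitors need pyrimidine nucleotides for DNA and for ribosomal and messenger RNA.

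Mice were told apart by a hashtag, an antibody that carries a DNA barcode and stains the cells of 1 mouse before 3 mice are pooled in 1 10x reaction. Each pool held 1 mouse of each group. The 15-base barcodes are printed whole and in capitals, since every base serves to identify the mouse.
B0301, NTB: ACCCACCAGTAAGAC
B0302, Veh: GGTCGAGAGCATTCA
B0303, BRQ: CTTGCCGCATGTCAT

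The label was checked against the markers of the lineage. Among primary granule transcripts, Elane lay between mice at 9540 to 14017 counts per 1000000 UMIs (CPM) in GMPs and at 3628 to 5426 in all other assigned cells, Prtn3 at 11694 to 17308 against 4148 to 8313, and Ctsg at 2272 to 3840 against 586 to 1615. Ranges of Mpo, which other progenitors express too, overlapped between GMPs and the other cells, at 4140 to 7594 against 3111 to 4526. These label checks are shares of all UMIs without further scaling, while CPM and fold changes given below are TMM-scaled. Near the Ms4a3 limit, in NTB mice the 373 cells up to 0.25 below it and the 267 cells up to 0.25 above it had median Mpo levels of 4.37 and 4.35, and in BRQ mice the 857 and 1054 such cells had 3.89 and 3.86, all on the ln scale. The limit is a point in a range of Ms4a3 levels, and no other marker was compared on its sides.

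Counts of all GMPs of a mouse were summed, so n is 3 mice per group. The sums held 998154 to 2068775 UMIs in NTB mice and 8740675 to 10897205 in BRQ mice, with 88, 135 and 177 GMPs in the NTB mice of pools 1 to 3 and 806, 656 and 653 in the BRQ mice, so the NTB values carry the larger counting error. Median UMIs per GMP were 10828.5 to 11581 in NTB, 14737 to 17966 in Veh and 12168.5 to 15795 in BRQ mice, and with every GMP thinned to 5000 UMIs the main comparison called 264 genes in place of the 621 given below. In such sums, fewer cells of a kind and less RNA per cell cannot be told apart. The pools shared 3 to 12 of their assigned barcodes pairwise, 1 of them a GMP barcode. Of the 621 genes called below, BRQ replicate 3 (pool 3) lay furthest from the NTB mean in 464, BRQ replicate 1 in 91 and BRQ replicate 2 in 66.

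GMPs made up 15.9%, 10.3% and 7.23% of the assigned cells in the NTB mice (mean 11.1% ± 4.38, SD, n = 3). In the BRQ mice they made up 31.3%, 28.3% and 27.9% (29.2% ± 1.91), and in the Veh mice 36.6%, 24.9% and 22.9% (28.1% ± 7.39). The BRQ and NTB mice did not overlap, and the difference was 18 percentage points. Within pools 1 to 3 it was 15.5, 17.9 and 20.6 points. BRQ and Veh mice overlapped. Since Ms4a3 chose the cells, this share is a description with no test, and so is its own level (2237 to 2599 CPM in BRQ and 2353 to 2739 in NTB mice).

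**Figure D1:**
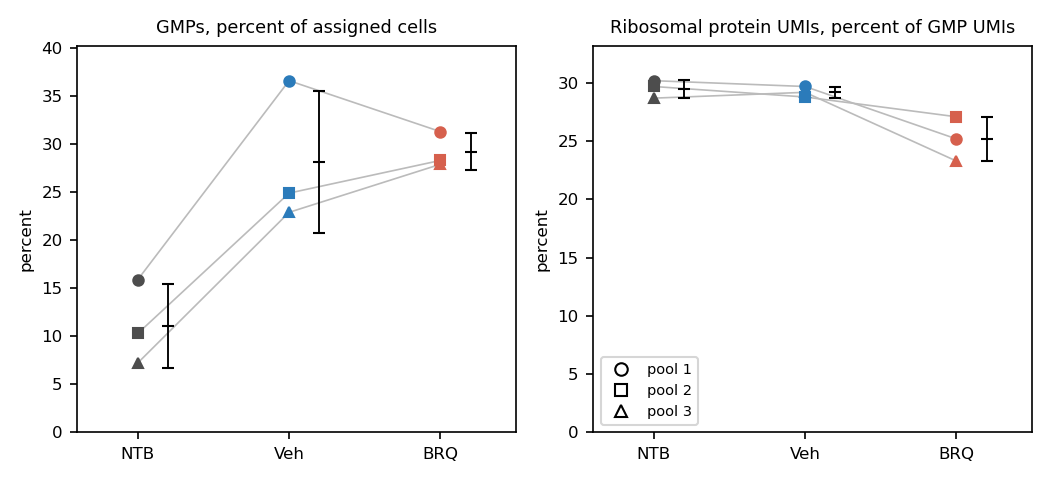
Left, GMPs in percent of assigned cells, and right, UMIs of cytoplasmic ribosomal protein genes in percent of all GMP UMIs, in each mouse by group. Symbols give the pool, grey lines join mice of the same pool, and black bars are mean ± SD of 3 mice. GMPs are 27.9% to 31.3% in BRQ mice against 7.23% to 15.9% in NTB mice, and ribosomal protein UMIs are 23.3% to 27.1% against 28.7% to 30.2%.

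Of 10331 genes tested with edgeR's quasi-likelihood test, 621 (6.01%) had an adjusted p under 0.05 in BRQ-GMPs against NTB-GMPs and are named called below. Of these 264 (2.56%) were higher and 357 (3.46%) lower in BRQ-GMPs, and 125 changed by more than 2-fold. Counts of called genes in each list below stand against these shares. At an unadjusted p under 0.05 there were 2156. TMM scaling sets most genes to no change on average, with factors of 0.921 to 1.01 in NTB, 0.927 to 0.973 in Veh and 1.05 to 1.15 in BRQ mice. With totals of UMIs in place of TMM, chosen after seeing the data, the median of all genes in BRQ against NTB moved from -0.003 to 0.16, and 1319 genes were called, 1102 higher and 217 lower, so values below are relative to the bulk of genes and the split between higher and lower calls depends on the scaling. With the pool as a block 1217 genes were called, among them all 621. Without NTB replicate 1, 2 or 3 there were 410, 227 and 328, and 432 to 775 without each other mouse. The 3 BRQ mice did not overlap the 3 NTB mice in 2675 genes (25.9%), 598 of them called. In the same fit, 1169 genes (11.3%) were called in Veh-GMPs against NTB-GMPs and 1389 (13.4%) in BRQ-GMPs against Veh-GMPs. Without NTB replicate 2, NTB replicate 3 or Veh replicate 1 the first of these was 659, 538 and 638, and the second was 699 without Veh replicate 1. These contrasts share mice, so their values are set side by side and their overlap is no independent evidence.

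The 621 genes were sorted by these contrasts. Genes called in Veh-GMPs and BRQ-GMPs against NTB-GMPs in the same direction are named not restored, and there were 275 (2.66%), 147 higher and 128 lower. Genes called in BRQ-GMPs against both other groups in the same direction, and not in Veh-GMPs against NTB-GMPs, are named new, and there were 198 (1.92%), 72 higher and 126 lower. Not called does not show that Veh mice were at the NTB level. In mt-Nd4, Emb and Bax, named new below, all Veh mice lay apart from all NTB mice on the BRQ side. A further 13 genes were called in Veh-GMPs in 1 direction and in BRQ-GMPs in the opposite direction, 11 of them lower in BRQ-GMPs than in NTB-GMPs, and 135 were called in BRQ against NTB only. Not restored genes were 100 without NTB replicate 2 and 106 without NTB replicate 3, and new genes were 87 without NTB replicate 2 and 129 without Veh replicate 1. With the pool as a block the numbers were 599 and 359. For comparison, 439 genes were called in Veh-GMPs against NTB-GMPs, called back the opposite way in BRQ-GMPs, and not called in BRQ against NTB, which does not show that they were equal to the tumor-free level.

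**Figure D2:**
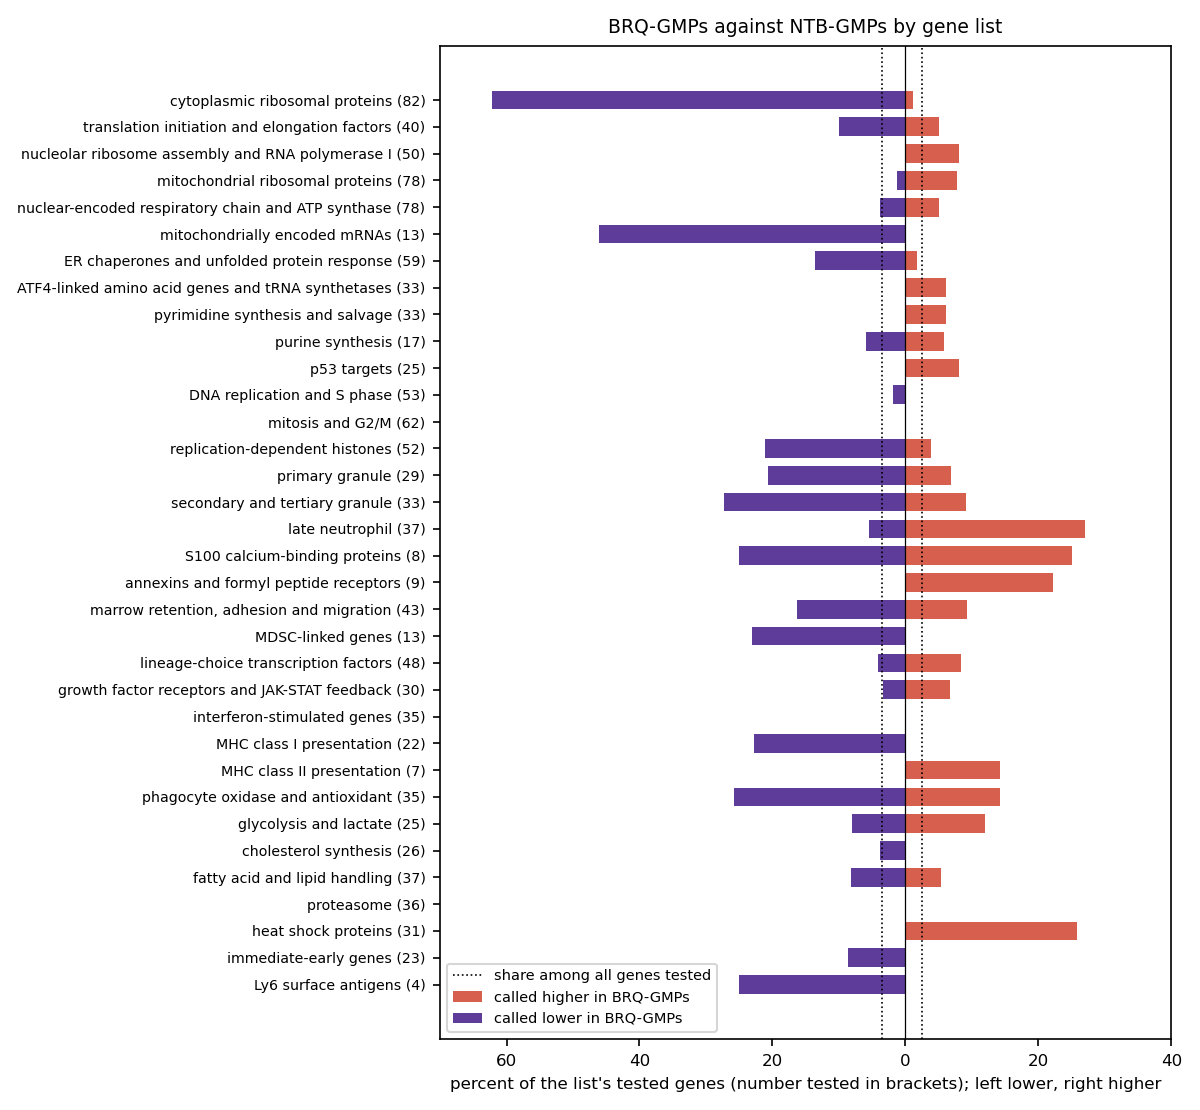
Percent of the tested genes of each pathway list that were called lower (left) or higher (right) in BRQ-GMPs than in NTB-GMPs, with the number tested in brackets. Dotted lines give the share among all genes tested, 3.46% lower and 2.56% higher. Cytoplasmic ribosomal proteins reach furthest on the lower side, with 51 of 82, and heat shock proteins (8 of 31) and late neutrophil genes (10 of 37) furthest on the higher side.

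Genes of cytoplasmic ribosomal proteins, the protein components of the small and large ribosomal subunits, made up 46 of the 198 new genes. Of 82 genes tested, 51 were called lower in BRQ-GMPs than in NTB-GMPs, 1 was called higher and 30 were not called, against 3.46% called lower among all genes. The median log2 fold change over the list was -0.41, against -0.003 over all genes, and 81 of 82 values were negative. In Veh-GMPs against NTB-GMPs the median of the list was 0.00 with 2 genes called, both higher, and in BRQ-GMPs against Veh-GMPs it was -0.40 with 64 called lower. With totals of UMIs in place of TMM the median against NTB was -0.24, 79 values were negative and 43 were called lower. Ribosomal protein genes held 30.2%, 29.7% and 28.7% of all GMP UMIs in the NTB mice, 29.7%, 28.8% and 29.2% in the Veh mice, and 25.2%, 27.1% and 23.3% in the BRQ mice. BRQ lay below NTB (change -4.34 percentage points, exact permutation test, two-sided p = 0.1, the smallest that 3 against 3 mice allow), and in pools 1 to 3 the changes were -5.02, -2.59 and -5.4 points.

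Rps20, a protein of the small subunit head, had 6870, 6339 and 5613 CPM in the NTB mice, 6428, 5899 and 5881 in the Veh mice and 4038, 4390 and 3247 in the BRQ mice. Every BRQ mouse lay below all others (log2 fold change against NTB -0.69 ± 0.11, SE, adjusted p = 0.00079). Rpl22l1, a paralog of the large subunit protein Rpl22, had 1195, 963 and 902 CPM in NTB, 1442, 1210 and 1174 in Veh and 676, 694 and 405 in BRQ mice. It was the list's largest change (-0.78 ± 0.15, adjusted p = 0.0026), and was called in BRQ against Veh as well (-1.11 ± 0.15). Rps10, Rpl10 and Rps7 followed at -0.63, -0.63 and -0.62, with adjusted p of 0.0024, 0.0024 and 0.0019 and no overlap of BRQ with NTB mice. The exception in direction was Rps27l, a p53-inducible paralog of Rps27, at 728, 805 and 738 CPM in NTB, 1114, 998 and 1053 in Veh and 1080, 965 and 1106 in BRQ mice. Veh and BRQ mice overlapped and lay above all NTB mice (0.47 ± 0.09, adjusted p = 0.0026, not restored). With only NTB and BRQ mice in the fit 30 were called lower, at an Ms4a3 limit of 3.5 it was 16, and with the filter limits read as UMIs 0, where 2 genes were called in all. The number called lower was 21 without NTB replicate 2, 28 without NTB replicate 1, 37 without BRQ replicate 3 and 40 to 66 without each other mouse, and 77 with the pool as a block.

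**Figure D3:**
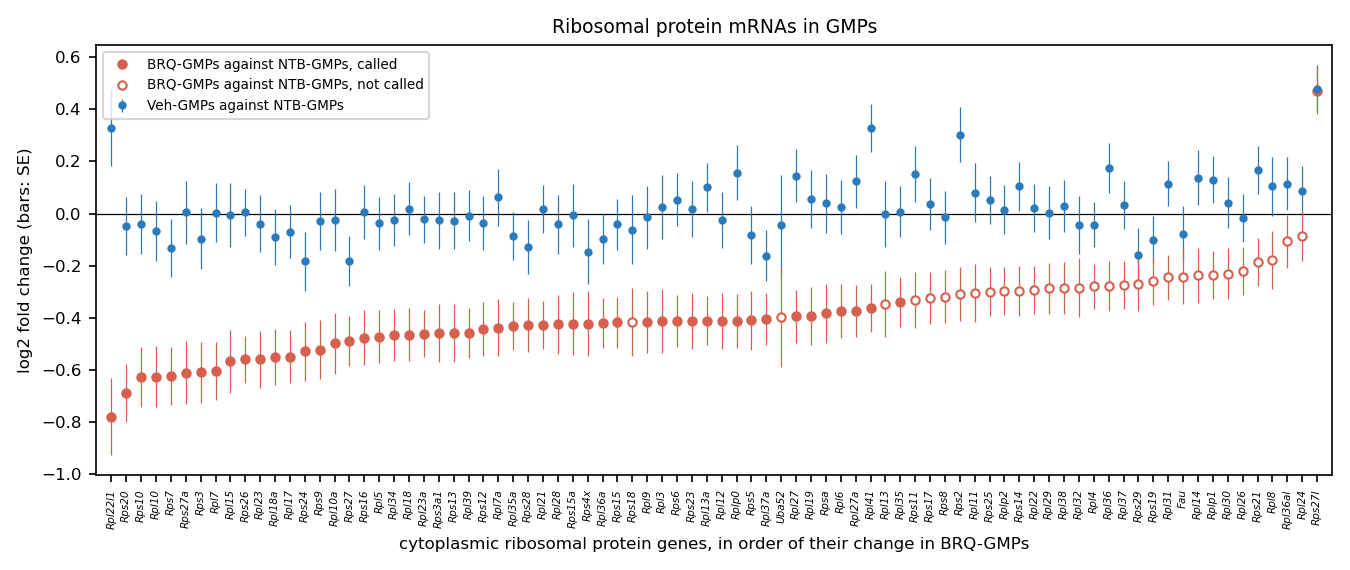
Log2 fold changes (points) and their SE (bars) of the 82 cytoplasmic ribosomal protein genes in BRQ-GMPs (red, filled when called) and in Veh-GMPs (blue) against NTB-GMPs, ordered by the value in BRQ-GMPs. The red points run from -0.78 (Rpl22l1) upwards and all but Rps27l (0.47) lie below 0 (3 genes above 0 with totals of UMIs in place of TMM), while the blue points lie around 0 with a median of 0.00.

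The promoters of the members with the largest falls are shown because these genes moved together. The RefSeq table (GRCm38.p6, the mm10 build of the counts) held entries for 4 of the 5 genes named, printed from 90 bases before to 30 bases from the transcription start. Capitals mark CCGGAAG, the core motif of ETS family transcription factors, on either strand (CTTCCGG on the other).
Rpl22l1, chr3:28805418-28805537, plus strand: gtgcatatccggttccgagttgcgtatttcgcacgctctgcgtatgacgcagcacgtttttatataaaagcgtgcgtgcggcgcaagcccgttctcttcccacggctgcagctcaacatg
Rps10, chr17:27635215-27635334, minus strand: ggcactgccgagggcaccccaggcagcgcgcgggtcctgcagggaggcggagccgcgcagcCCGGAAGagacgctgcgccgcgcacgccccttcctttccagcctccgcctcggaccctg
Rpl10, chrX:74270726-74270845, plus strand: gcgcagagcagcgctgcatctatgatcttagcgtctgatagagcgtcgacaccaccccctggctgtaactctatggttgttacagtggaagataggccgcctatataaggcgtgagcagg
Rps7, chr12:28635924-28636043, minus strand: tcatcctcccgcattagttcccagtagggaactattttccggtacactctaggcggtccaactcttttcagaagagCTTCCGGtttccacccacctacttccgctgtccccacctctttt

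Over windows of 300 bases, the motif was in 26 of 72 promoters of ribosomal protein genes (36.1%), in 14 of 48 promoters of those called lower (29.2%), in 19.8% of the promoters of tested genes and in 8.86% of all promoters in the table. Its share was thus lower in the genes called lower than in the whole list. A motif of pyrimidine bases, CTCTTTCC, was in 18.1%, 16.7%, 3.11% and 3.12% in the same order. A match of either motif describes letters only and no factor's binding.

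Among 40 translation factors, which start and extend protein synthesis, 4 were called lower and 2 higher (median 0.01), against 3.46% and 2.56% of all genes. The balance turned with totals of UMIs in place of TMM, to 2 lower and 13 higher (median 0.18). Eef1b2, a subunit of the elongation factor 1 exchange complex, had 1831, 1669 and 1538 CPM in NTB, 1783, 1626 and 1648 in Veh and 1186, 1326 and 993 in BRQ mice (-0.52 ± 0.10, adjusted p = 0.0035, new). Eif3k, of initiation factor complex 3, was lower by the same pattern (-0.49 ± 0.10, adjusted p = 0.0042, new). The calls of Eif3f (-0.37) and Eef1a1 (-0.35) were lost when 1 mouse was left out, Eif3f without NTB replicates 1 or 2, Veh replicates 2 or 3 or BRQ replicate 3 (adjusted p up to 0.16), and Eef1a1 without any mouse but NTB replicate 3 or BRQ replicate 2 (up to 0.16). The initiation factors called higher, Eif1a (0.56 ± 0.12) and Eif2s1 (0.45 ± 0.10), were higher in Veh-GMPs too (0.86 and 0.61) and so not restored. Without NTB replicate 3 both were lost (adjusted p up to 0.079 and 0.061), Eif1a also without NTB replicate 2.

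Nucleolar ribosome assembly and RNA polymerase I genes, which make and process ribosomal RNA, had 4 of 50 called, each higher, and all 50 values were positive, with a median of 0.26 in BRQ-GMPs and 0.40 in Veh-GMPs against NTB-GMPs. Among all genes 2.56% were called higher, and with totals of UMIs in place of TMM 26 of the 50 were. Mybbp1a, a nucleolar regulator of ribosomal DNA transcription, had 62.1, 81.6 and 93.9 CPM in NTB, 120, 126 and 127 in Veh and 109, 112 and 132 in BRQ mice (0.52 ± 0.12, adjusted p = 0.0073). Gnl3 (nucleostemin) had 62.1, 64.6 and 58.7 CPM in NTB and 77.9, 86.0 and 105 in BRQ mice (0.55 ± 0.13, adjusted p = 0.011). Both groups were apart in both genes. Mybbp1a was lost without NTB replicate 2 (adjusted p = 0.055) and Gnl3 without NTB replicates 2 or 3 (up to 0.091). The other two, Nob1 (0.61) and Wdr43 (0.41), were lost without BRQ replicate 3 and NTB replicates 1 or 2, Nob1 also without NTB replicate 3 and Wdr43 also without any Veh mouse (adjusted p up to 0.20 and 0.24).

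Mitochondrial genes went both ways. Of the 13 mRNAs encoded in the mitochondrial genome, 6 were called, each lower, and all 13 values were negative (median -0.40, against -0.18 in Veh-GMPs, and -0.23 with 3 called and 13 negative with totals of UMIs in place of TMM). Their median was -0.60 at an Ms4a3 limit of 3.5 and -0.26 with the filter limits read as UMIs. As a share of all GMP UMIs they held 3.87%, 3.71% and 3.83% in the NTB mice, 3.35%, 3.39% and 3.35% in the Veh mice and 3.67%, 3.31% and 3.36% in the BRQ mice. On this scale BRQ lay below NTB and overlapped Veh. mt-Nd4, a complex I subunit, had 2128, 1906 and 2010 CPM in NTB, 1765, 1784 and 1729 in Veh and 1562, 1435 and 1350 in BRQ mice, so that the 3 groups were apart (-0.47 ± 0.09, adjusted p = 0.0026, new). mt-Nd3 (-0.53 ± 0.10, adjusted p = 0.0026) and mt-Nd2 (-0.44 ± 0.10, adjusted p = 0.0067) were also called in every fit without 1 mouse. Among 78 mitochondrial ribosomal protein genes 6 were higher and 1 lower, against 2.56% and 3.46% of all genes. Their median was 0.16, with 0.10 without NTB replicate 3 and 0.068 at an Ms4a3 limit of 3.5. Totals of UMIs in place of TMM gave 28 higher and 0 lower (median 0.32). Mrpl42 was the largest rise, at 123, 111 and 117 CPM in NTB and 173, 157 and 194 in BRQ mice (0.58 ± 0.10, adjusted p = 0.0017, not restored), and Mrpl24 the single fall (-0.48 ± 0.11, lost without NTB replicate 2, adjusted p = 0.11).

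Nuclear genes of the respiratory chain and ATP synthase gave 4 higher and 3 lower of 78 (median 0.03), against 2.56% and 3.46% of all genes. Totals of UMIs in place of TMM gave 27 higher and 1 lower (median 0.19). Cox6b2, a cytochrome c oxidase subunit best known from testis, had 117, 120 and 113 CPM in NTB, 61.6, 48.9 and 56.3 in Veh and 50.1, 56.3 and 35.8 in BRQ mice. Both tumor-bearing groups lay below all NTB mice and overlapped each other (-1.30 ± 0.13, adjusted p = 6.4e-06, not restored). Atp5a1, the alpha subunit of ATP synthase, rose from 362, 388 and 370 CPM to 501, 492 and 530 (0.44 ± 0.08, adjusted p = 0.0026), with 481 to 530 in Veh mice. The mitochondrial ADP/ATP carrier Slc25a4 was likewise not restored, at 28.3, 29.5 and 18.8 CPM in NTB, 50.1, 52.0 and 45.2 in Veh and 45.5, 46.8 and 51.4 in BRQ mice (0.96 ± 0.15, adjusted p = 0.00054).

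ER chaperones and genes of the unfolded protein response, which help secretory proteins fold, made up 7 of the 13 genes that were called in opposite directions in Veh-GMPs and BRQ-GMPs. Of 59 genes 8 were called lower and 1 higher in BRQ against NTB (median -0.11), while 35 were called higher in Veh against NTB (median 0.43) and 51 lower in BRQ against Veh (median -0.52). With totals of UMIs in place of TMM the median in BRQ against NTB turned to 0.05 with 3 called higher and 3 lower, and the calls of Hsp90b1 and Pdia4 were lost (adjusted p of 0.068 and 0.11). The summed share of GMP UMIs was 1.30%, 1.38% and 1.33% in both NTB and BRQ mice and 1.87%, 1.90% and 1.91% in Veh mice, so on this scale BRQ and NTB overlapped. Sdf2l1, an ER protein of the Bip chaperone cycle (chr16:17130138-17132383, mm10), had 251, 233 and 219 CPM in NTB, 478, 453 and 400 in Veh and 150, 180 and 137 in BRQ mice. The 3 groups did not overlap in it (-0.58 ± 0.11 against NTB, adjusted p = 0.0021, and -1.51 against Veh). Creld2, an ER protein induced by misfolded proteins, had 32.7, 69.6 and 62.1 CPM in NTB and 33.8, 38.6 and 31.3 in BRQ mice, so NTB replicate 1 lay among the BRQ values (-0.75 ± 0.15, adjusted p = 0.0037, lost without NTB replicates 2 or 3 with adjusted p up to 0.090). Manf, a secreted ER stress protein, had 494, 558 and 461 CPM in NTB, 913, 852 and 833 in Veh and 381, 407 and 316 in BRQ mice (-0.46 ± 0.10, adjusted p = 0.0078). Hsp90b1 (Grp94) had 683, 674 and 691 against 539, 561 and 480 CPM (-0.37 ± 0.09, adjusted p = 0.011). Without NTB replicate 2, Manf and Hsp90b1 were lost (adjusted p of 0.10 and 0.058), as was Pdia4 (-0.45), which was also lost without BRQ replicate 1 (up to 0.16).

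The best known member, Hspa5 (Bip), had 479, 626 and 526 CPM in NTB, 1003, 1057 and 1033 in Veh and 477, 511 and 400 in BRQ mice, and its fall against NTB did not pass the test (-0.24 ± 0.10, adjusted p = 0.19). Its cochaperone Dnajb11 had -0.28 ± 0.10 (adjusted p = 0.12). With the pool as a block both were called lower against NTB (adjusted p = 0.028 and 0.034). Both were called higher in Veh against NTB and lower in BRQ against Veh. Ddit3 (Chop), the pro-apoptotic factor of prolonged ER stress, had 4.36, 15.1 and 8.18 CPM in NTB and 9.47, 9.42 and 9.56 in BRQ mice (-0.04 ± 0.26, adjusted p = 0.95). Nucb2, a calcium-binding protein of the Golgi and ER that is not in the list, followed the same order with 108, 116 and 102 CPM in NTB, 132, 128 and 131 in Veh and 66.9, 76.9 and 55.3 in BRQ mice (-0.71 ± 0.11, adjusted p = 0.00067, new).

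Heat shock proteins fold and refold proteins in the cytosol and mitochondria. Of 31 genes 8 were called in BRQ-GMPs, each higher (median 0.26, and 0.12 at an Ms4a3 limit of 3.5, against 2.56% called higher among all genes), and all 8 were not restored. There were 23 called higher with totals of UMIs in place of TMM. Hspd1 (Hsp60), the mitochondrial chaperonin, had 222, 215 and 208 CPM in NTB, 456, 471 and 412 in Veh and 350, 308 and 429 in BRQ mice (0.76 ± 0.11, adjusted p = 0.00023). Its partner Hspe1 (Hsp10) had 300, 282 and 324, then 582, 541 and 575, then 448, 383 and 531 CPM (0.59 ± 0.10, adjusted p = 0.0019). In both the BRQ mice lay between the other groups, except that BRQ replicate 3 of Hspd1 reached the Veh range. Hspd1 (chr1:55077835-55088243, minus strand) and Hspe1 (chr1:55088132-55091307, plus strand, mm10) are neighbours whose 5′ ends overlap on opposite strands. Cct6a, of the cytosolic chaperonin, rose by 0.49 ± 0.10 (adjusted p = 0.0034). Hsph1 (0.70) was lost without NTB replicate 3 (adjusted p = 0.079), Hspa9 (0.51) without NTB replicates 1 or 2 (up to 0.10) and Ahsa1 (0.55) without NTB replicate 2 (0.062).

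Among primary granule genes, whose proteins kill and digest microbes, 6 of 29 were called lower and 2 higher (median -0.15, -0.10 without NTB replicate 1 or BRQ replicate 3, and 0.0047 with 8 called higher and 5 lower with totals of UMIs in place of TMM). Mpo, myeloperoxidase (chr11:87793581-87804413, mm10), had 8248, 7840 and 7033 CPM in NTB, 5885, 6349 and 5974 in Veh and 4162, 4959 and 3593 in BRQ mice. The 3 groups were apart, and Mpo was lower in BRQ than in Veh as well (-0.86 ± 0.11 against NTB, adjusted p = 6.5e-05, and -0.52 against Veh). Fcnb, ficolin B, had 1073, 1051 and 1080 CPM in NTB, 484, 427 and 488 in Veh and 590, 668 and 350 in BRQ mice (-1.0 ± 0.14, adjusted p = 0.00025). Cd63, a tetraspanin of the primary granule membrane, was new, with 790, 755 and 677 against 476, 523 and 329 CPM (-0.74 ± 0.13, adjusted p = 0.0011). The serine proteases were not called: Elane had -0.36 ± 0.12 (adjusted p = 0.093), Prtn3 -0.24 ± 0.12 (0.26) and Ctsg 0.21 ± 0.13 (0.38). With the pool as a block Elane and Prtn3 were called lower (adjusted p = 0.0022 and 0.030), and with totals of UMIs in place of TMM Ctsg was called higher (0.38, adjusted p = 0.0089).

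Of 33 secondary and tertiary granule genes 9 were lower and 3 higher (median -0.33, against -0.43 in Veh-GMPs). The median was -0.53 and -0.14 at Ms4a3 limits of 2.5 and 3.5, and -0.51 without the 10% of GMPs with the highest late neutrophil share. Camp, cathelicidin (chr9:109847379-109849617, mm10), had 2538, 2268 and 1957 CPM in NTB, 1459, 601 and 584 in Veh and 902, 470 and 196 in BRQ mice. It was the steepest fall among the genes that met the expression limit of the naming rule (-2.11 ± 0.34, adjusted p = 0.00081, not restored). Ltf, lactoferrin, had 166, 138 and 97.2 CPM in NTB, 57.3, 33.8 and 42.9 in Veh and 61.2, 57.1 and 43.7 in BRQ mice (-1.26 ± 0.16, adjusted p = 6.5e-05). Pglyrp1, a peptidoglycan recognition protein, fell by 0.61 on the log2 scale (adjusted p = 0.0026). Against this order Anxa1, annexin A1, was higher (below), as was Slpi, a secreted protease inhibitor, at 129, 141 and 139 CPM in NTB, 112, 111 and 115 in Veh and 163, 162 and 192 in BRQ mice (0.34 ± 0.09, lost without any NTB mouse or BRQ replicate 3, adjusted p up to 0.11). The neutrophil marker list shares Camp and Ltf with this list, so it is no separate evidence. Of its 12 markers 3 were called lower and 2 higher. Their summed share of GMP UMIs was 0.382% to 0.433% in NTB and 0.128% to 0.261% in BRQ mice. The part of neutrophil RNA in these falls was not tested.

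**Figure D4:**
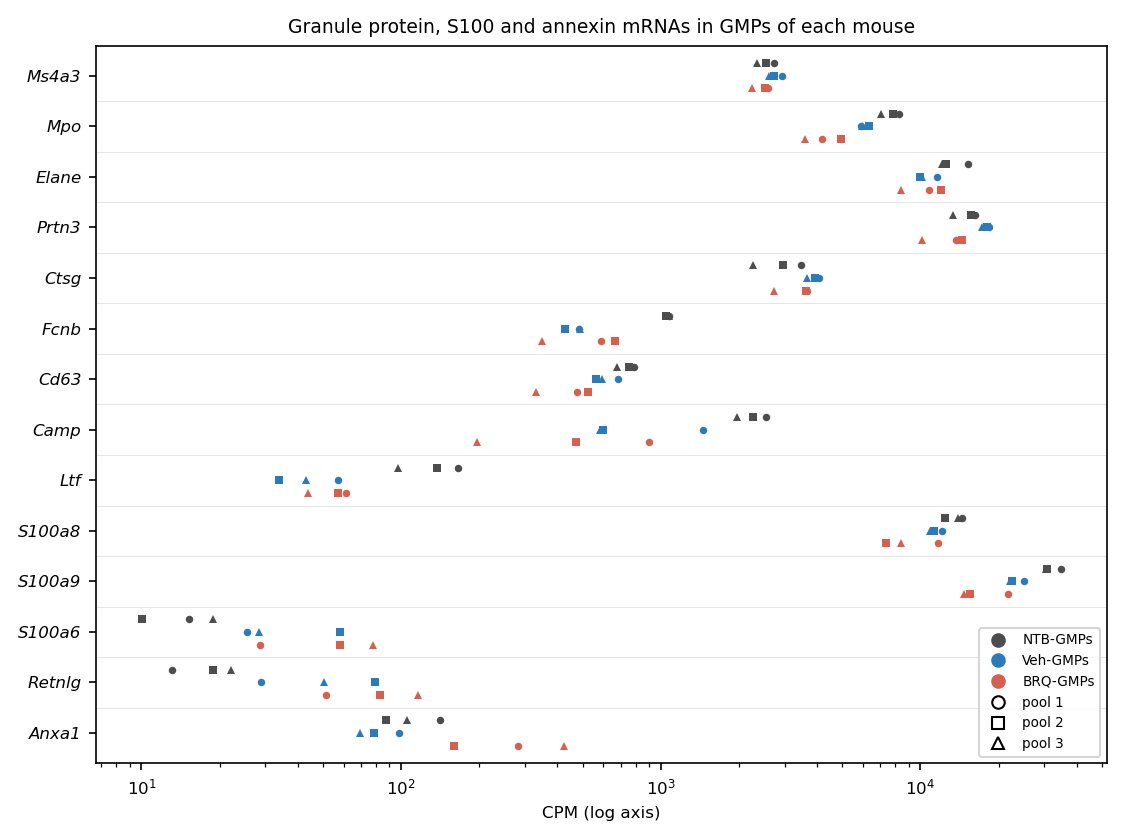
CPM (log axis) of granule protein, S100 and annexin genes in the GMPs of each mouse, with colour for the group and symbol for the pool. Mpo, Fcnb, Camp, Ltf and S100a9 are lower in every BRQ mouse than in every NTB mouse, while S100a6, Retnlg and Anxa1 are higher in every BRQ mouse.

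Of 8 S100 calcium-binding protein genes tested, 2 were called higher, 2 lower and 4 were not called, against 2.56% higher and 3.46% lower among all genes. S100a8 and S100a9 form calprotectin and lie next to each other on chromosome 3 (chr3:90668978-90670035 and chr3:90692632-90695721, mm10). S100a9 had 34803, 30864 and 30384 CPM in NTB, 25158, 22486 and 22126 in Veh and 21669, 15542 and 14752 in BRQ mice, each group below the one before (-0.89 ± 0.13, adjusted p = 0.00025, not restored). S100a8 had 14452, 12483 and 13916 against 11670, 7361 and 8406 CPM in BRQ mice (-0.57 ± 0.13, adjusted p = 0.0092). S100a6, calcyclin, had 15.3, 10.0 and 18.8 CPM in NTB, 25.4, 58.3 and 28.3 in Veh and 28.6, 58.4 and 77.8 in BRQ mice. Its rise was called new (1.88 ± 0.39, adjusted p = 0.0046) although the Veh mice covered much of the BRQ range, and it was lost without NTB replicate 2 (0.069). It was also lost at Ms4a3 limits of 2.5 (0.24) and 3.5 (2.49), with hashtag ratios (1.76), without Scrublet-marked cells (1.11) and without the 10% of GMPs with the highest late neutrophil share (0.27), and with the filter limits read as UMIs it turned to -1.03, with adjusted p of 0.061 to 0.88. S100a6 is in the late neutrophil list that chose those 10%, so its lower value there is partly built in. S100a10, which binds annexin A2, had 5.45, 5.02 and 9.63 CPM in NTB, 15.5, 5.01 and 11.8 in Veh and 20.6, 28.3 and 22.4 in BRQ mice (1.72 ± 0.30, adjusted p = 0.0014, new), without overlap of BRQ with the other mice.

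Anxa1 (chr19:20373428-20390944, mm10), a phospholipid-binding protein that restrains inflammation, had 142, 87.2 and 105 CPM in NTB, 98.0, 78.3 and 69.3 in Veh and 282, 160 and 424 in BRQ mice. All BRQ mice lay above all others (1.42 ± 0.24, adjusted p = 0.0011, and 1.79 against Veh). Anxa6, the other annexin called (1.01 ± 0.30), was lost without NTB replicates 2 or 3, any Veh mouse or BRQ replicate 3 (adjusted p up to 0.33). Among 37 late neutrophil genes 10 were higher and 2 lower (median 0.30, against -0.02 in Veh-GMPs). The median was 0.09 without BRQ replicate 3, 0.036 at an Ms4a3 limit of 3.5, and -0.027 without the 10% of GMPs with the highest late neutrophil share. The last setting leaves out cells by this same list, so its lower median is partly built in. Retnlg, resistin-like gamma of mature neutrophils, had 13.1, 18.8 and 22.1 CPM in NTB, 28.8, 79.0 and 50.5 in Veh and 51.3, 82.7 and 116 in BRQ mice (2.13 ± 0.35, adjusted p = 0.00098, not restored), the largest rise under the naming rule. When the 10% of GMPs with the highest share of late neutrophil transcripts, Retnlg among them, were left out, its value turned to -0.50. The call was also lost at Ms4a3 limits of 2.5 (0.20) and 3.5 (0.73), with the filter limits read as UMIs (0.054), with hashtag ratios (1.67) and without Scrublet-marked cells (0.76), with adjusted p of 0.073 to 1.0. Clec4e (Mincle), a receptor for microbial glycolipids, rose from 3.27, 5.02 and 4.81 CPM to 13.9, 12.1 and 18.3 (1.70 ± 0.29, adjusted p = 0.0014, not restored). Fth1, ferritin heavy chain, rose from 948, 805 and 793 to 1418, 1230 and 1331 CPM (0.65 ± 0.09, adjusted p = 0.00025), with 1099 to 1183 in Veh mice. G0s2, an inhibitor of fat breakdown, fell from 93.7, 85.3 and 90.5 to 62.1, 54.0 and 34.2 CPM (-0.84 ± 0.16, adjusted p = 0.0028).

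Genes of marrow retention, adhesion and migration gave 4 higher and 7 lower of 43 (median -0.06, which was -0.017 without BRQ replicate 1, 0.10 with no filter on low counts and 0.10 with 12 higher and 3 lower with totals of UMIs in place of TMM). Vcam1, the adhesion molecule that binds integrin alpha-4 beta-1, had 302, 277 and 271 CPM in NTB, 179, 177 and 160 in Veh and 140, 179 and 50.8 in BRQ mice (-1.20 ± 0.25, adjusted p = 0.0043). It is also a macrophage marker, and 3 of the 4 tested macrophage markers were called lower, their summed share being 0.0376% to 0.0394% in NTB and 0.0172% to 0.0298% in BRQ mice, and Mertk of that list was at 0 in both groups. The other two were Hmox1, heme oxygenase (6.54, 6.27 and 4.81 against 1.37, 1.62 and 2.23 CPM, -1.68 ± 0.38, lost without NTB replicate 2, adjusted p = 0.078), and C1qa (14.2, 1.88 and 4.33 against 2.00, 0.975 and 0.956 CPM, lost without NTB replicates 1 or 3, up to 0.24). The part of macrophage RNA was not tested. Emb (embigin), a cell adhesion protein of progenitors, had 10.9, 11.3 and 9.63 CPM in NTB, 19.2, 18.2 and 16.7 in Veh and 29.3, 20.1 and 40.2 in BRQ mice, in 3 groups that did not overlap (1.53 ± 0.28, adjusted p = 0.0021, new). Itgb2, the beta chain of the leukocyte integrins, had 60.0, 66.5 and 55.4 CPM in NTB, 37.5, 42.0 and 39.2 in Veh and 44.4, 40.8 and 36.1 in BRQ mice (-0.58 ± 0.12, not restored, lost without NTB replicate 2, adjusted p = 0.069). Tmsb10, thymosin beta-10, which binds actin monomers, rose in steps with 52.3, 51.4 and 56.8 CPM in NTB, 77.7, 68.3 and 72.6 in Veh and 107, 110 and 130 in BRQ mice (1.1 ± 0.11, adjusted p = 6.4e-06). It is one of 12 not restored genes that were called further from NTB in BRQ against Veh, while 22 were called back toward NTB.

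**Figure D5:**
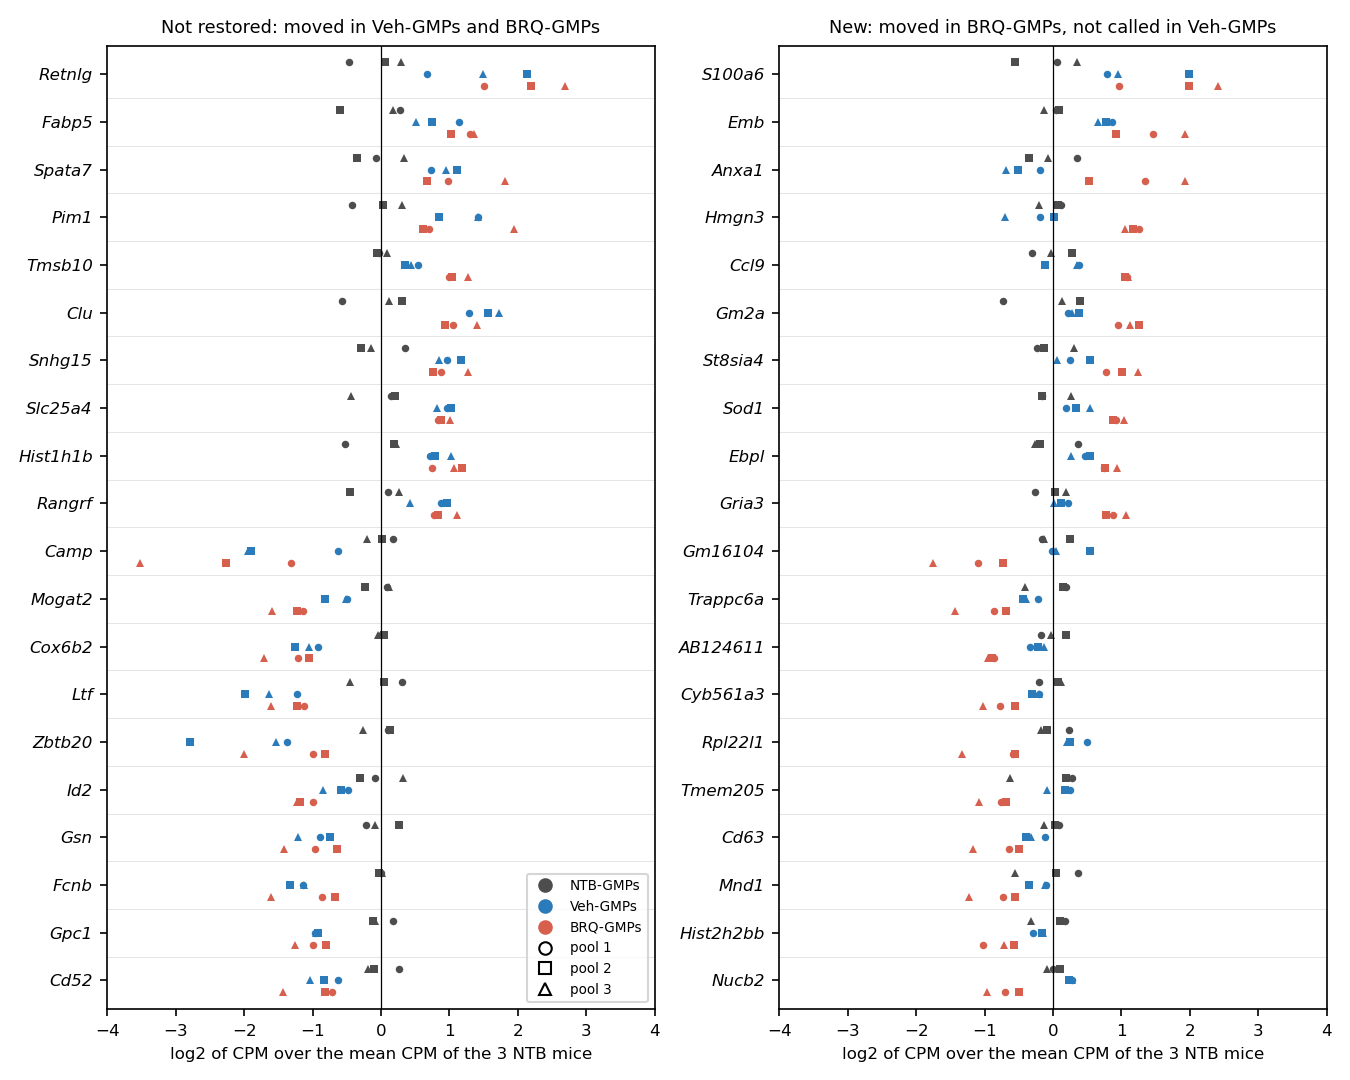
Log2 of CPM over the mean CPM of the NTB mice, for the 10 genes per direction with the largest change that were not restored (left) and new (right). Colours give the group and symbols the pool. On the left the Veh mice lie on the same side of 0 as the BRQ mice, and on the right every BRQ mouse lies beyond all Veh mice in the gene's direction, S100a6 excepted.

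Among 48 lineage transcription factors 4 were higher and 2 lower (median 0.06), against 2.56% and 3.46% of all genes. Totals of UMIs in place of TMM gave 10 higher and 2 lower (median 0.22). Hoxa9, a homeobox factor of stem cells and early myeloid progenitors (chr6:52223100-52231089, mm10), had 7.63, 8.78 and 10.6 CPM in NTB, 19.0, 25.7 and 21 in Veh and 20.9, 34.0 and 30.3 in BRQ mice (1.60 ± 0.25, adjusted p = 0.00054, not restored). Myb, required for progenitor proliferation, was new at 650, 681 and 647 CPM in NTB, 610, 620 and 585 in Veh and 843, 911 and 853 in BRQ mice (0.40 ± 0.08, adjusted p = 0.0050). Lmo2, a bridging protein of early blood transcription complexes, was new as well (0.48 ± 0.09, adjusted p = 0.0034). Id2, an inhibitor of helix-loop-helix factors, had 28.3, 24.5 and 37.5 CPM in NTB, 21.6, 20.1 and 16.7 in Veh and 15.1, 13.2 and 12.8 in BRQ mice (-1.17 ± 0.17, adjusted p = 0.00027, not restored). Zeb2 (0.46) was higher in BRQ-GMPs and lower in Veh-GMPs (-0.40), and lost in BRQ against NTB without NTB replicate 2 (adjusted p = 0.15). Bach2 (-2.85), at 2.18 to 4.33 CPM in NTB and 0.159 to 0.866 in BRQ mice, was lost without NTB replicates 2 or 3 (up to 0.17). Of other lineages, F13a1 and Ms4a6c of 6 monocyte markers were higher (0.77 ± 0.15 and 1.38 ± 0.28), with a summed share of 0.00561% to 0.00677% in NTB and 0.00995% to 0.0148% in BRQ mice. Cd34 of the stem cell markers was higher (1.19 ± 0.32, lost without any NTB mouse, adjusted p up to 0.14) and Prg2 of the eosinophil markers lower (-1.84 ± 0.48, lost without NTB replicates 2 or 3, up to 0.27). In the marker lists of erythroid, megakaryocyte, dendritic, basophil and mast, B, T and NK, and stromal cells, edgeR and DESeq2 called 0 of 6, 1, 2, 4, 5, 2 and 2 tested genes in BRQ against NTB, and 0, 0, 1, 1, 3, 1 and 1 had an unadjusted p under 0.05. Besides the neutrophil, macrophage and monocyte markers, summed shares of 2 further marker lists did not overlap between NTB and BRQ mice (for single genes this was 25.9%). These were basophil and mast cell markers at 0.0123% to 0.0157% against 0.0181% to 0.0199%, and stem and multipotent progenitor markers at 0.00329% to 0.00391% against 0.00471% to 0.00519%. The part of these cells in the results was not tested.

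Growth factor signalling gave Pim1, a kinase induced by STAT5, at 40.3, 55.2 and 66.9 CPM in NTB, 144, 97.2 and 145 in Veh and 88.0, 82.7 and 209 in BRQ mice (1.17 ± 0.29, adjusted p = 0.015, not restored, lost without NTB replicates 1 or 2, up to 0.10, and with DESeq2, 0.095). Its highest value was BRQ replicate 3, without which it was 0.59 (adjusted p = 0.011). Csf2ra, the GM-CSF receptor alpha chain, fell from 100, 110 and 103 to 73.8, 80.9 and 68.1 CPM (-0.50 ± 0.10, adjusted p = 0.0037), and the shared beta chain Csf2rb rose (0.90 ± 0.25, lost without any NTB mouse, Veh replicate 2 or BRQ replicate 3, up to 0.15, and 0.46 on the log2 scale without BRQ replicate 3). Kit had 64.3, 84.7 and 68.4 CPM in NTB, 46.2, 40.1 and 43.3 in Veh and 66.1, 76.4 and 59.4 in BRQ mice, and was not called in BRQ against NTB (-0.12 ± 0.12, adjusted p = 0.61), though called in both other contrasts. Cd84, a surface marker used for myeloid-derived suppressor cells, showed the same order with -0.37 ± 0.16 (adjusted p = 0.17). Of the other genes in the study's questions, Tgfb1 (0.06 ± 0.09), Cd274, the PD-L1 gene (0.67 ± 0.41), Irf8 (0.79 ± 0.41) and Jaml (-0.20 ± 0.43) were not called, and Vegfa was (-0.44 ± 0.13, lost without any NTB mouse, Veh replicate 2 or BRQ replicates 1 or 3 and with totals of UMIs, up to 0.23). Cd274, Irf8 and Jaml lay at or under 7.28 CPM in every NTB and BRQ mouse, and Irf8 was called in 1 of its 19 alternatives.

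The drug's target gene was not called. Dhodh (chr8:109591343-109608673, mm10) had 6.54, 8.78 and 5.30 CPM in NTB, 8.06, 6.89 and 6.41 in Veh and 7.19, 6.61 and 8.68 in BRQ mice (0.16 ± 0.28, adjusted p = 0.81). Umps, which completes the synthesis of UMP (0.03 ± 0.14), and Cad, which starts the pathway (0.33 ± 0.16), were not called, though Cad was called higher at an Ms4a3 limit of 2.5 and with hashtag ratios (adjusted p = 0.031 and 0.035). Of 33 pyrimidine genes 2 were called, both higher and both not restored: Nme1, a nucleoside diphosphate kinase (394, 380 and 388 CPM in NTB and 478, 479 and 509 in BRQ mice, 0.34 ± 0.08, lost without NTB replicates 2 or 3, adjusted p up to 0.094), and Dut, which removes dUTP (0.30, lost without NTB replicates 2 or 3, any Veh mouse or BRQ replicates 1 or 3, up to 0.22). Totals of UMIs in place of TMM gave 8 pyrimidine genes called higher, and among all genes 2.56% were called higher. Of 25 targets of the stress response factor p53, 2 were called, both higher and both new, and 5 were called higher with totals of UMIs. Bax, a pro-apoptotic protein, had 93.7, 104 and 107 CPM in NTB, 139, 129 and 115 in Veh and 181, 130 and 183 in BRQ mice (0.69 ± 0.12, adjusted p = 0.0023). Cdkn1a (p21) had 1.09, 1.25 and 1.93 CPM in NTB and 5.46, 3.57 and 15.9 in BRQ mice (2.48 ± 0.74, adjusted p = 0.048), of which BRQ replicate 3 was the highest, and it was lost without that mouse, any NTB mouse or any Veh mouse (up to 0.19).

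Genes of DNA replication gave 1 call in 53, Lig1, DNA ligase 1, which was lower (-0.42 ± 0.09, adjusted p = 0.0065, and 0.071 with totals of UMIs in place of TMM), and a median of -0.01. For 62 genes of mitosis the median was 0.00, and edgeR and DESeq2 called 0, with 4 higher and 2 lower at an unadjusted p under 0.05, while with totals of UMIs in place of TMM 9 were called higher. Histone genes gave 11 lower and 2 higher of 52 (median -0.39, which was -0.11 at an Ms4a3 limit of 3.5 and -0.22 with hashtag ratios). Their replication-dependent mRNAs lack a poly(A) tail, so that capture by poly(A) covers them in part. Hist1h1b, a linker histone, rose from 89.4, 146 and 150 to 215, 290 and 268 CPM (0.96 ± 0.14, adjusted p = 0.00023, not restored), and Hist2h2bb fell from 28.3, 27.0 and 20.2 to 12.4, 17.0 and 15.3 (-0.71 ± 0.18, new, lost without NTB replicates 1 or 2, adjusted p up to 0.14).

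Oxidase and antioxidant genes gave 5 higher and 9 lower of 35 (median -0.04, and 0.13 with 10 higher and 5 lower with totals of UMIs in place of TMM). Sod1, cytosolic superoxide dismutase, had 86.1, 85.9 and 116 CPM in NTB, 109, 121 and 139 in Veh and 182, 176 and 196 in BRQ mice (0.92 ± 0.11, adjusted p = 5e-05, new). Gclm, the modifier subunit of glutathione synthesis, was not restored, with 112, 125 and 118, then 216, 255 and 235, then 207, 191 and 248 CPM (0.86 ± 0.11, adjusted p = 5e-05). Mgst2, a microsomal glutathione transferase, fell from 228, 215 and 193 to 155, 152 and 107 CPM (-0.61 ± 0.12, adjusted p = 0.0037, not restored).

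Lipid genes gave 2 higher and 3 lower of 37 (median 0.06), against 2.56% and 3.46% of all genes, and 6 higher and 3 lower with totals of UMIs (median 0.22). Lpl, lipoprotein lipase, had 27.3, 21.3 and 25.0 CPM in NTB, 4.91, 3.76 and 2.52 in Veh and 5.10, 7.58 and 3.19 in BRQ mice (-2.23 ± 0.27, adjusted p = 5e-05). Mogat2, a monoacylglycerol acyltransferase, stepped down from 45.8, 36.4 and 46.7 over 30.5, 24.4 and 30.1 to 19.4, 18.3 and 14.3 CPM (-1.31 ± 0.15, adjusted p = 4.7e-05). Acsl1, which activates long-chain fatty acids, fell by 0.50 on the log2 scale (adjusted p = 0.0046). Fabp5, a fatty acid carrier, rose from 21.8, 11.9 and 20.2 to 44.5, 36.6 and 46.1 CPM, with 25.6 to 39.4 in Veh mice (1.27 ± 0.21, adjusted p = 0.00079). These 4 genes were not restored. The fifth, Acaa2 of mitochondrial fatty acid oxidation, was called in BRQ against NTB only (0.61, lost without NTB replicates 2 or 3, up to 0.12).

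Other genes led the not restored and new groups without belonging to a list above. Not restored and lower were Gpc1, a heparan sulfate proteoglycan (98.1, 79.7 and 81.8 against 43.5, 49.8 and 36.2 CPM, -0.99 ± 0.12, adjusted p = 5e-05), and Cd52, a small surface glycoprotein (433, 337 and 317 against 220, 206 and 134 CPM, -0.94 ± 0.14, adjusted p = 0.00052). Clu, clusterin, a secreted chaperone, was not restored and higher (9.81, 18.2 and 15.9 against 30.4, 28.1 and 38.9 CPM, 1.08 ± 0.21, adjusted p = 0.0031). Hmgn3, a nucleosome-binding protein, was new, with 17.4, 16.9 and 14 CPM in NTB, 14, 16.3 and 9.90 in Veh and 38.5, 36.2 and 33.4 in BRQ mice (1.19 ± 0.18, adjusted p = 0.0003). The chemokine gene Ccl9 was new with 26.2, 39.5 and 31.8, then 42.1, 30.1 and 41.5, then 69.0, 67.0 and 69.3 CPM (1.04 ± 0.14, adjusted p = 6.9e-05). New rises were also called in Gm2a, the GM2 ganglioside activator (1.03 ± 0.17), St8sia4, a polysialyltransferase (0.97 ± 0.18), and Gria3, a glutamate receptor subunit (0.87 ± 0.14), with adjusted p of 0.0012, 0.0024 and 0.00059. In MHC class I presentation 5 of 22 genes were called, each lower, while with totals of UMIs in place of TMM 2 were called higher and 1 lower. Psme1, a proteasome activator subunit, fell from 283, 267 and 253 to 184, 214 and 185 CPM (-0.46 ± 0.09, adjusted p = 0.0026, new).

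The remaining lists are given against the 2.56% called higher and 3.46% called lower among all genes. Of 33 amino acid and tRNA synthetase genes under ATF4, Psat1 (0.57) and Hars (0.58) were higher, and both were lost without NTB replicates 2 or 3 or BRQ replicate 3 (adjusted p up to 0.17 and 0.23), Hars also without NTB replicate 1. Of 17 purine genes, Gmps (0.38) was higher and Adssl1 (-0.48) lower, and both were lost without NTB replicate 2 (up to 0.19 and 0.10), Gmps also without NTB replicate 3, Veh replicate 2 or BRQ replicates 1 or 2, and Adssl1 also without NTB replicate 1. In glycolysis Hk3, a hexokinase of myeloid cells, fell from 106, 116 and 111 to 69.6, 84.9 and 62.9 CPM (-0.62 ± 0.12, adjusted p = 0.0024, not restored). Ldha (0.40), Tpi1 (0.40), Pgam1 (0.32) and Pfkfb4 (-0.77) were the other called genes of the 25, and each was lost without at least 1 mouse: Ldha without NTB replicates 2 or 3 or BRQ replicate 1 (up to 0.11), Tpi1 without NTB replicate 2 (0.081), Pgam1 without NTB replicates 1 or 2 or BRQ replicate 1 (up to 0.11), and Pfkfb4 without NTB replicates 1 or 3 or BRQ replicate 3 (up to 0.20). The single call among 7 MHC class II genes was Ifi30 (1.57, lost without NTB replicates 2 or 3 or BRQ replicate 3, up to 0.19). Of 13 genes linked to myeloid-derived suppressor cells, S100a8, S100a9 and Vegfa, each given above, were lower. Of 23 immediate-early genes Dusp6 (-1.50) and Nfkbia (-0.48) were lower, both lost without NTB replicates 1 or 3 or BRQ replicate 3 (up to 0.29 and 0.14), Nfkbia also without NTB replicate 2 or Veh replicate 2. Of 4 Ly6 antigens Ly6g (-0.75), known from mature neutrophils, was lower and was lost without any NTB mouse, Veh replicate 2 or BRQ replicates 2 or 3 (up to 0.20), and with hashtag ratios it turned to 0.20 on the log2 scale (adjusted p = 0.76). Of 35 interferon-stimulated and 36 proteasome genes, edgeR and DESeq2 called 0 in BRQ against NTB, and 7 and 6 had an unadjusted p under 0.05, while with totals of UMIs in place of TMM 2 and 11 were called higher.

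Whether these changes were particular to GMPs was asked in cells of the same mice. The nearest class was Mpo-high cells without a single Ms4a3 UMI, 366 cells in all and 7 to 70 per mouse, and the difference between classes was tested as an interaction with the mouse as a block. Of 8154 genes 3 (0.0368%) differed, Tmsb10, S100a10 and Csf3r, and 466 did so at an unadjusted p under 0.05. Tmsb10 rose in GMPs (1.1 ± 0.11) and had -0.25 ± 0.24 in the Mpo-high cells, where its level was far higher, at 619 to 1205 CPM in NTB and BRQ mice. S100a10 rose in GMPs (1.72 ± 0.30) and had -0.11 ± 0.29 in Mpo-high cells. Csf3r, the G-CSF receptor, had -0.15 ± 0.10 in GMPs and 1.63 ± 0.43 in Mpo-high cells. With the Mpo limit at 4 its interaction turned to 0.40 (adjusted p = 1.0), and with hashtag ratios it was -0.90 (adjusted p = 0.81). S100a10 alone was still called at an Mpo limit of 4 (2.28, adjusted p = 0.040), where Tmsb10 had 0.95 (adjusted p = 1.0), and with hashtag ratios S100a10 was lost (adjusted p = 0.13). The ribosomal protein list had a median of -0.34 in the Mpo-high cells, against -0.41 in GMPs, and edgeR called 0 of its 82 genes in the interaction, 1 having an unadjusted p under 0.05. DESeq2 was not run on the interaction. Without NTB replicates 1, 2 or 3 the interaction was called in 1, 0 and 7 genes, and without BRQ replicates 1, 2 or 3 in 0, 34 and 1. By gene, Tmsb10 was lost without NTB replicate 2 or BRQ replicates 1 or 3 (adjusted p up to 0.36), S100a10 without NTB replicates 1 or 2 or BRQ replicate 1 (up to 0.50), and Csf3r without NTB replicates 1 or 2 or BRQ replicates 1 or 3 (up to 0.33).

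Against all 12050 other assigned cells, a mixture whose makeup differs between groups, 272 of 12376 genes (2.2%) had an interaction, 205 with a higher and 67 with a lower value in GMPs, and 1679 at an unadjusted p under 0.05. The ribosomal protein list had a median of -0.13 there, and its median interaction was -0.20, with 9 of 82 genes called lower in GMPs. Anxa1 was higher in BRQ-GMPs but lower in the other cells of BRQ mice (-0.63 ± 0.15), with an interaction of 2.10 ± 0.21. Mpo fell in GMPs and had -0.08 ± 0.12 in the other cells, with an interaction of -0.72 ± 0.07. Sdf2l1 had 0.20 ± 0.12 in the other cells and an interaction of -0.75 ± 0.09. S100a8 fell further in the other cells (-1.56 ± 0.21) than in GMPs, with an interaction of 1.07 ± 0.12. Adjusted p of these 4 interactions were 4.3e-09, 9.9e-09, 2.1e-07 and 1.1e-07 in this order.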

How the data were processed

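Bone marrow cells enriched for c-Kit from 9 mice were profiled as 3 hashtagged 10x pools. The authors deposited UMI counts per gene and hashtag, made with Cell Ranger 6.0.0 on mm10 per the submitters' processing notes. Their limits of 500 and 7500 were read as genes per cell. No deposited column was left unused for want of a sample (0 columns).

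Mice were assigned with HTODemux (Seurat 5.3.0, quantile 0.99), doublets and negatives being left out, and cells were kept as given in the report. Counts were summed per mouse over GMPs and tested with edgeR 4.0.16 (TMM, filterByExpr, quasi-likelihood, Benjamini-Hochberg) on R 4.3.3 over all 9 mice. Fold changes are log2 with SE, CPM use TMM-scaled totals, and n is 3 mice per group. Each mouse is 1 animal of 1 group. On simulated counts for BRQ against NTB (10331 genes) all 200 genes changed 2-fold were recovered, with 16 unchanged genes called. The 200 were drawn from genes with a mean of at least 20 CPM. Counts followed the fitted dispersion without the quasi-likelihood spread or a pool effect. Recovery at lower levels, or with the spread of the real mice, was not tested.

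Named genes were up to 15 called genes per direction with a mean of at least 20 CPM and no overlap, 10 per direction among the not restored and the new, up to 4 per gene list, the GMP markers and genes in the study's questions. Some that fell under this rule are counted in their lists without a name, and the cholesterol synthesis list is not reported in the text. Outside the rule, and chosen after their values were seen, the text names Rps7, Rps27l, Eef1a1, Eif3f, Hspa9, Hsp90b1, Cct6a, S100a10, Csf3r, Cd34, Hoxa9, Bach2, Cdkn1a, Hmox1, C1qa, Lpl, F13a1, Ms4a6c, Prg2, Umps, Cad, Ly6g, Pglyrp1, Slpi, Clec4e, Anxa6, Ifi30, Pfkfb4 and Dusp6. The 34 pathway and 13 marker lists, and the choice of GMPs, were made with earlier results of these data known, so no pattern here is independent support.

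Replicate numbers name the pool, and mice of a pool shared a 10x reaction per the labels. Deviations from group means correlated at -0.019 to 0.206 within pools (median 0.0881, 9 pairs) and at -0.153 to 0.0825 between pools (median -0.0456, 18 pairs). Alternatives were DESeq2 1.42.0, RLE factors, totals of UMIs without TMM (added after the data were seen), no filter, only NTB and BRQ mice, the pool as a block, leaving out each mouse, Ms4a3 limits of 2.5 and 3.5, the limits of 500 and 7500 read as UMIs, hashtag ratios, Scrublet (scanpy 1.11.5), thinning to 5000 UMIs and leaving out the 10% of GMPs with the highest late neutrophil share.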

Additional observations from a re-analysis of the deposited data

Results flagged for a closer look

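In these data 3 genes changed differently in GMPs than in Mpo-high cells without a Ms4a3 UMI of the same mice, by a test of the difference itself (edgeR interaction of cell class and group with the mouse as a block, 3 mice per group). The differences, as the log2 change of BRQ against NTB in GMPs minus that in Mpo-high cells, were 1.32 in Tmsb10 (adjusted p = 0.022), 1.82 in S100a10 (adjusted p = 0.035) and -1.78 in Csf3r (adjusted p = 0.035). Each lost its call without some of the mice, as given above. With the Mpo limit at 4 Csf3r turned to 0.40 and Tmsb10 was lost (both adjusted p = 1.0), while S100a10 was still called. With hashtag ratios Csf3r (-0.90, adjusted p = 0.81) and S100a10 (1.45, adjusted p = 0.13) were lost. Against all other assigned cells Csf3r had -0.43 (adjusted p = 0.12), while Tmsb10 (0.77) and S100a10 (1.13) were called. At the Ms4a3 limit of 3.5 all 3 genes were lost, and the Mpo-high class held 7 to 70 cells per mouse.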

How the results depend on the processing

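Genes called in BRQ against NTB (621) numbered 1217 with the replicate block, 1319 with totals of UMIs in place of TMM (chosen after seeing the data), 1744 and 46 at Ms4a3 limits of 2.5 and 3.5, 2 with the filter limits read as UMIs, 264 after thinning, and 227 to 775 without single mice. Veh against NTB (1169) gave 2509, 40, 0 and 426 under the limits of 2.5 and 3.5, the UMI reading and thinning, and 538 to 1500 without single mice. BRQ against Veh (1389) gave 2105 with the block, 2243 with totals of UMIs, 371 at 3.5, 0 with the UMI reading, 629 after thinning and 699 to 1477 without single mice. Not restored genes (275) numbered 599 with the block, 994 at 2.5, 6 at 3.5, 0 with the UMI reading, 414 with hashtag ratios, 88 after thinning and 100 to 323 without single mice. New genes (198) numbered 359 with the block, 401 with totals of UMIs, 24 at 3.5, 0 with the UMI reading, 89 after thinning and 87 to 249 without single mice. The interaction with Mpo-high cells (3) gave 16 without the filter, 14 at 2.5, 0 at 3.5, 5 without Scrublet-marked cells, 1 at an Mpo limit of 4, 272 against all other cells (chosen after seeing the data) and 0 to 34 without single mice. The limit of 3.5, the UMI reading and thinning use fewer cells or counts by construction, and the cause of the other shifts was not tested. The GMP share differed by 3.45 to 22 points and the ribosomal protein share by -3.39 to -5.31 points in every alternative run on them. Of 127 named genes the block took no call away and gave 4 (Hspa5, Dnajb11, Elane, Prtn3). DESeq2 left 117 on their side of the threshold and lost 10, while 77 were lost with the UMI reading, 71 at 3.5, 34 after thinning, and 41 and 27 without NTB replicates 2 and 3. With totals of UMIs 113 kept their side, 9 were lost, Ctsg was gained, and signs turned in Ms4a3 (0.12), Csf3r (0.014), Kit (0.038) and Ddit3 (0.12). Signs turned with the UMI reading in Eif2s1 (-0.088), Wdr43 (-0.16), S100a6 (-1.03) and Cd84 (0.14), at 3.5 in Nob1 (-0.27), Wdr43 (-0.049), Csf2rb (-0.078) and Vegfa (0.0032), at 2.5 in Ms4a3 (0.062) and Ddit3 (0.035), with hashtag ratios in Ddit3 (0.051) and Ly6g (0.20), without Scrublet-marked cells in Ddit3 (0.049), after thinning in Dhodh (-0.087) and Cad (-0.14), and without the GMPs of highest late neutrophil share in Retnlg (-0.50). Without single mice the values of genes whose sign turned were -0.11 to 0.015 in Ms4a3, -0.080 to 0.41 in Dhodh, -0.086 to 0.21 in Umps, -0.22 to 0.0092 in Kit, -0.012 to 0.15 in Tgfb1, -0.43 to 0.24 in Jaml and -0.24 to 0.45 in Ddit3. The NTB sums, of 998154 to 2068775 UMIs, lay below those of the BRQ mice, and the part of depth was tested only by thinning. Without single mice of the list medians given above these changed sign: respiratory chain (-0.04 to 0.10), DNA replication (-0.022 to 0.053), mitosis (-0.023 to 0.058), oxidase and antioxidant (-0.089 to 0.045) and lipid genes (-0.011 to 0.10). With totals of UMIs medians turned positive for DNA replication (0.16), oxidase and antioxidant (0.13), ER (0.052), primary granule (0.0047) and marrow retention genes (0.10). Under other settings the same was seen for translation factors (-0.046 at 3.5, -0.057 with the UMI reading), DNA replication (0.24 at 3.5), mitosis (-0.097 at 3.5), oxidase and antioxidant genes (0.14 without the filter), lineage factors (-0.0080 after thinning) and lipid genes (-0.075 with hashtag ratios).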
